A study of Mus musculus with 18 samples.

Results

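Regions that carried a peak only in libraries of Foxa chimeras with the N-terminal domain of Foxa3 were examined in chromatin immunoprecipitation sequencing (ChIP-seq) data from induced hepatocyte-like (iHep) cells. Overlapping peaks of 8 Foxa peak lists were merged (1 bp or more) into 24999 regions. A region was kept when at least 1 of the 4 lists with the Foxa3 N-terminal domain held a peak in it and none of the other 4 lists did, which left 2211 regions (8.84%; exact Clopper-Pearson 95% interval 8.50 to 9.20%). The remainder comprised 7465 regions with peaks on both sides and 15323 regions held by the other 4 lists alone. The regions were chosen by the listed peaks themselves, so the counts by list, scores, ranks and widths below are a description. A missing peak means that none was listed, not that the site was unbound.

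iHep cells are mouse embryonic fibroblasts, here prepared from C57BL/6 embryos of 13.5 days post coitum, that were turned toward a liver-cell state by viral delivery of Hnf4alpha together with a Foxa protein. All groups received Hnf4alpha. Foxa1_NA3 was Foxa1 with the N-terminal domain (NTD) of Foxa3, Foxa2_NA3 was Foxa2 with that domain, Foxa3_CA1 was Foxa3 with the C-terminal domain (CTD) of Foxa1, and Foxa3_CA2 was Foxa3 with the CTD of Foxa2; all 4 were precipitated with a Foxa3 antibody. The other side comprised Foxa1_CA3 (Foxa1 with the CTD of Foxa3; Foxa1 antibody), Foxa2_CA3 (Foxa2 with the CTD of Foxa3; Foxa2 antibody), Foxa3_NA1 (Foxa3 with the NTD of Foxa1; Foxa1 antibody) and Foxa3_NA2 (Foxa3 with the NTD of Foxa2; Foxa2 antibody). Every construct is represented by a single ChIP library, and no value has a replicate. The terminal domains and the antibody change together between the sides, and their parts in any difference cannot be told apart. In a library made from many cells, a site bound in fewer cells and a site bound less often in each cell cannot be told apart either.

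The Foxa family comprises forkhead transcription factors of endoderm and liver. They share a winged-helix DNA-binding domain that can engage its sites in compacted chromatin, for which they are called pioneer factors. The N- and C-terminal domains lie outside that fold, differ more between the family members and have been linked to transcriptional activation and chromatin contacts. Hnf4alpha is a nuclear receptor that works beside Foxa proteins at liver enhancers.

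List length varied, which sets how many regions a list can contribute. The Foxa3_CA1 list held 7533 peaks, Foxa2_NA3 5230, Foxa3_CA2 3594 and Foxa1_NA3 956, against 4807 in Foxa1_CA3, 7625 in Foxa3_NA1, 13715 in Foxa2_CA3 and 16543 in Foxa3_NA2. Sequencing depth is unknown, since the files list peaks and not reads, and what kind of score they hold is not stated. Positions are on mm9 and count from 1. No genome sequence or annotation of mm9 was used, so no gene is named and no sequence is shown.

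Foxa3 with the C-terminal domain of Foxa1 dominated the group. Of the 2211 regions, 1728 (78.2%) held a Foxa3_CA1 peak, 560 (25.3%) a Foxa2_NA3 peak, 369 (16.7%) a Foxa3_CA2 peak and 30 (1.36%) a Foxa1_NA3 peak. Most were seen in a single library: 1362 regions (61.6%) in Foxa3_CA1 alone, 349 (15.8%) in Foxa2_NA3 alone, 109 (4.93%) in Foxa3_CA2 alone and 9 (0.407%) in Foxa1_NA3 alone. The share held by 1 list was thus 82.7% of these regions. It was 65.6% of the regions held by the other 4 lists alone and 47.5% of all union regions. Regions of both sides are in 2 or more lists by definition. The lists of the sides also differ in length, which by itself bears on how often a region is shared. The counts per library ran in the order of list length, but not in proportion to it. The share of a list's peaks in these regions was 22.9% in Foxa3_CA1, 10.8% in Foxa2_NA3, 10.5% in Foxa3_CA2 and 3.14% in Foxa1_NA3. With the 956 strongest peaks of each list, 897 regions met the rule and 18.2% of them were in Foxa3_CA1 alone. With the same shortening of the Foxa3 N-terminus lists and the other lists in full, 114 regions were left, of which 31.6% were in Foxa3_CA1 alone. Without the Foxa3_CA1 library, 868 regions met the rule.

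Regions shared by 2 or more libraries numbered 382 (17.3%). The largest shared group was Foxa3_CA1 with Foxa3_CA2, with 164 regions. Foxa2_NA3 with Foxa3_CA1 shared 110 regions, and 75 were shared by Foxa2_NA3, Foxa3_CA1 and Foxa3_CA2. A further 12 regions were held by Foxa2_NA3 and Foxa3_CA2 without Foxa3_CA1. The Foxa1_NA3 list entered 21 shared regions, in 6 sets of lists. Of the 15 possible sets, the only empty one was Foxa1_NA3 with Foxa2_NA3 and Foxa3_CA2. Foxa3_CA1 and Foxa3_CA2, which differ in the origin of the CTD and carry the same NTD and DNA-binding domain, had 247 regions in common, 66.9% of the Foxa3_CA2 regions and 14.3% of the Foxa3_CA1 regions. Foxa2_NA3 and Foxa3_CA1 had 196 in common, 35.0% of the Foxa2_NA3 and 11.3% of the Foxa3_CA1 regions. Both pairs shared more outside the group. Foxa3_CA1 and Foxa3_CA2 held 2717 regions of both sides together, where Foxa3_CA2 had 3217 peaks. Foxa2_NA3 and Foxa3_CA1 held 3328 together, where Foxa2_NA3 had 4667 peaks. Within the group, the count of regions shared by 2 or more libraries was 108 without Foxa3_CA1 and 205 without Foxa3_CA2.

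**Figure D1:**
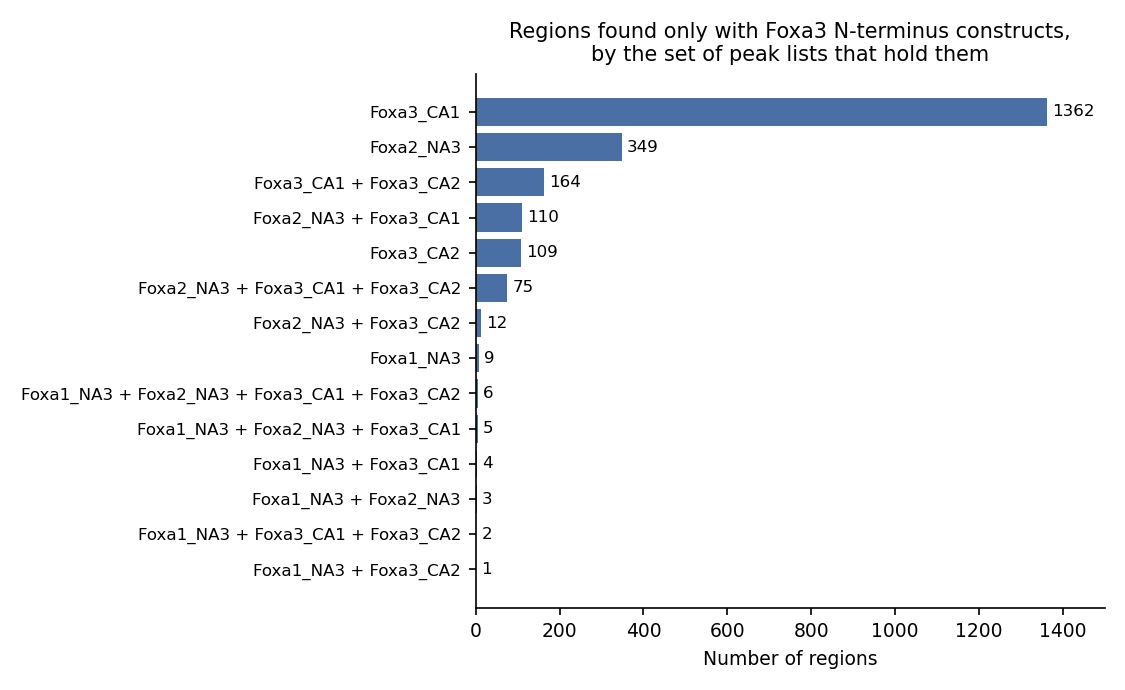
Number of regions found only with Foxa3 N-terminus constructs (x axis, linear) for each set of peak lists that holds them (y axis); each bar is a count of regions. Foxa3_CA1 alone holds 1362 of the 2211 regions, and 6 regions are held by all 4 lists.

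Peaks in these regions were mostly weak within their own lists. Median scores of the peaks in these regions were 10.1 in Foxa1_NA3, 13.3 in Foxa2_NA3, 14.4 in Foxa3_CA1 and 12.1 in Foxa3_CA2. The remaining peaks of the same lists had medians of 13.4 in Foxa1_NA3, 18.3 in Foxa2_NA3, 19.5 in Foxa3_CA1 and 16 in Foxa3_CA2. When each list was cut by score into 4 parts of equal size, the share of peaks in these regions grew from the strongest to the weakest part in all 4 lists: from 9.77 to 36.2% in Foxa3_CA1, from 2.37 to 19.6% in Foxa2_NA3, from 4.45 to 19.7% in Foxa3_CA2 and from 0.418 to 6.69% in Foxa1_NA3. The mirror group, peaks in regions of the other 4 lists alone, showed the same gradient: from 7.16 to 49.8% in Foxa1_CA3, from 18.3 to 78.2% in Foxa2_CA3, from 7.97 to 59.8% in Foxa3_NA1 and from 33.0 to 84.0% in Foxa3_NA2. Strong exceptions existed. The best rank of such a peak was 36 in Foxa3_CA1, 39 in Foxa2_NA3, 40 in Foxa3_CA2 and 202 in Foxa1_NA3. Among the 956 strongest peaks of a list, 60 (6.28%) lay in these regions in Foxa3_CA1, 40 (4.18%) in Foxa3_CA2 and 18 (1.88%) in Foxa2_NA3. The mirror group had such exceptions too, with best ranks of 237 in Foxa1_CA3, 200 in Foxa2_CA3, 42 in Foxa3_NA1 and 42 in Foxa3_NA2. It held 64 (6.69%), 30 (3.14%), 23 (2.41%) and 107 (11.2%) of the 956 strongest peaks of these lists in the same order.

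**Figure D2:**
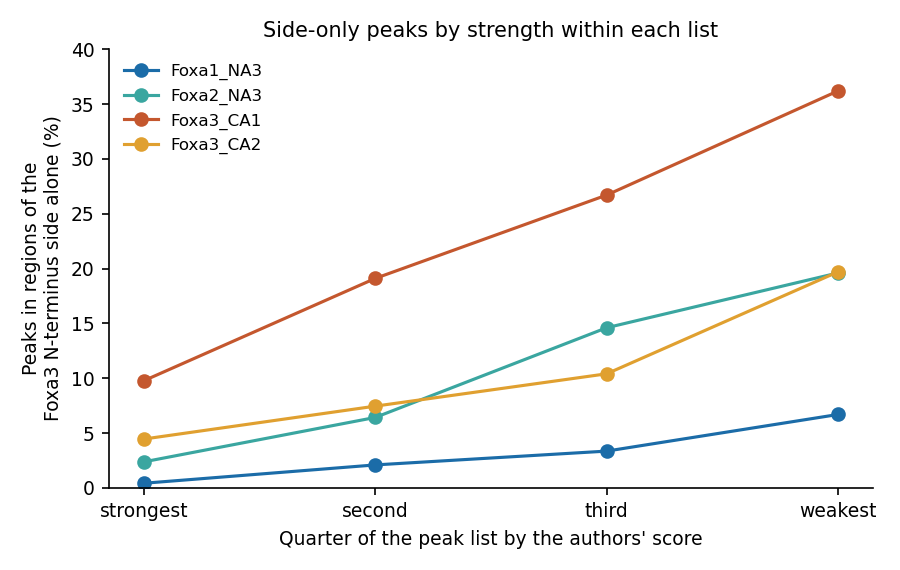
Share of a list's peaks that lie in regions of the Foxa3 N-terminus side alone (y axis, percent) by part of the list, cut into 4 of equal size from strongest to weakest score (x axis); each line is 1 library. The share is highest in the weakest part of each Foxa3 N-terminus list and reaches 36.2% in Foxa3_CA1.

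Regions held by more libraries had higher scores and were wider. In Foxa3_CA1 the median score was 13.1 for regions of this list alone (1362 peaks), 17.7 for regions of 2 lists (278 peaks), 30.3 for regions of 3 lists (82 peaks) and 66.8 for regions of all 4 lists (6 peaks). In Foxa3_CA2 the medians were 10.4, 12.5, 16.3 and 25.3 in the same order, and in Foxa2_NA3 they were 12.6, 14.2, 14.2 and 27.1. Foxa1_NA3 showed no such order, with medians of 9.48, 10.4, 9.97 and 10.5 over 9, 8, 7 and 6 peaks. The median width of the merged region was 384 bp for 1 list, 476 bp for 2 lists, 640 bp for 3 lists and 733 bp for all 4 lists; merging more peaks widens a region by itself. Within single Foxa3_CA1 peaks, whose width merging does not touch, the medians were 402, 454, 598 and 723 bp.

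Where 2 libraries shared a region, their scores were loosely related. Over the 247 regions with Foxa3_CA1 and Foxa3_CA2 peaks, Spearman's rho of the scores was 0.456, against 0.601 over 2717 regions with peaks on both sides that held the same pair. For Foxa2_NA3 and Foxa3_CA1 rho was 0.119 over 196 regions, against 0.520 over 3328 regions of both sides. These correlations run across regions of the same libraries and over unequal score ranges, and they are given as a description.

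The 6 regions held by all 4 libraries lay on 4 chromosomes, with pairs on chromosomes 7 and 11. A region on chromosome 11 (87239944 to 87240849) scored 8.72 in Foxa1_NA3, 49.1 in Foxa2_NA3, 114 in Foxa3_CA1 and 57.9 in Foxa3_CA2. The other on chromosome 11 (87275526 to 87276480) scored 10, 49.1, 74.8 and 58.0 in the same order of libraries. Since scores are read within a list only, ranks as a percentage of list length are given beside them; they still depend on how many peaks a list holds. The first region ranked at 88.6% of the Foxa1_NA3 list, 7.09% of Foxa2_NA3, 0.664% of Foxa3_CA1 and 2.42% of Foxa3_CA2, and the second at 78.7%, 7.06%, 2.79% and 2.37%. Both were thus near the top of Foxa3_CA1 and Foxa3_CA2 and near the bottom of Foxa1_NA3. The pair on chromosome 7 (33478378 to 33479156 and 33705381 to 33706067) scored 10.9 and 17.2 in Foxa1_NA3, 25.4 and 23.7 in Foxa2_NA3, 70.9 and 62.8 in Foxa3_CA1, and 27.7 and 23.0 in Foxa3_CA2; it ranked at 3.28% and 4.66% of the Foxa3_CA1 list. The region on chromosome 4 (53179617 to 53180107) scored 16.9 in Foxa1_NA3, 28.9 in Foxa2_NA3, 31.9 in Foxa3_CA1 and 14.3 in Foxa3_CA2, and ranked at 28.7%, 21.1%, 19.8% and 56.9% of these lists. The region on chromosome 18 (85130663 to 85131266), with scores of 9.36, 11.4, 37.5 and 14.1 in the same order, had the poorest mean rank of the 6, 2100. The order of the libraries by rank differed between the regions. How many regions all libraries share rests on single lists: the number common to all remaining Foxa3 N-terminus lists was 81 without Foxa1_NA3 and 11 without Foxa3_CA2, and it was 24 without Foxa3_NA1 and 11 without Foxa2_CA3.

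**Figure D3:**
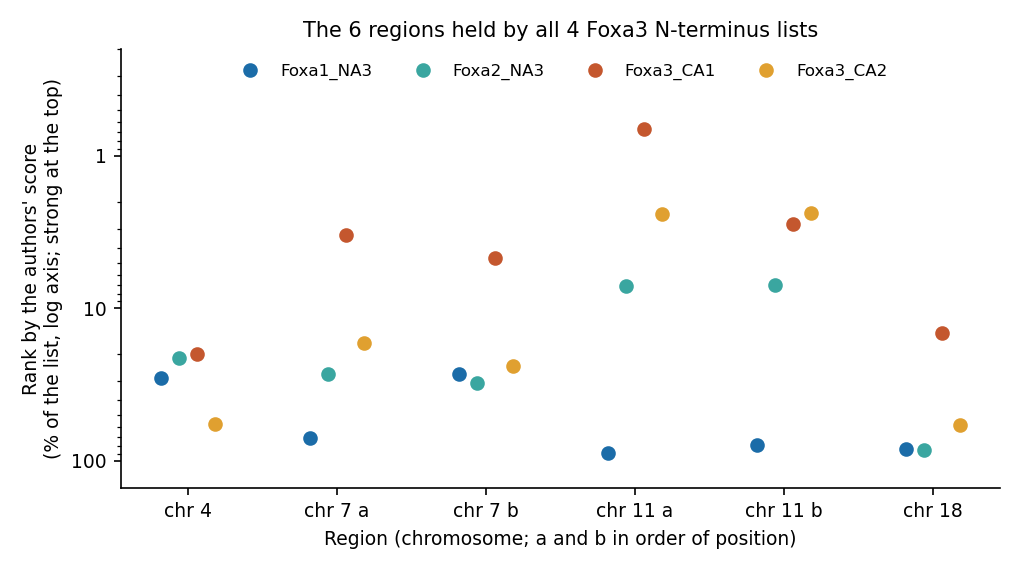
Rank of the peak within its list by the authors' score, as a percentage of list length (y axis, log scale, strongest at the top), for the 6 regions held by all 4 Foxa3 N-terminus lists (x axis, named by chromosome); each point is 1 library. The first chromosome 11 region ranks at 0.664% of the Foxa3_CA1 list and 88.6% of the Foxa1_NA3 list.

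The chromosome 11 pair lay in a stretch that also held regions of both sides. Over 36537 bp from the start of the first region to the end of the second, Foxa3_CA1, Foxa3_CA2 and Foxa2_NA3 listed 4 peaks each and Foxa1_NA3 2, against 1 in Foxa3_NA2 and 0 in Foxa1_CA3, Foxa2_CA3 and Foxa3_NA1. Between the pair lay the strongest Foxa3_CA1 peak of all the regions examined (87256490 to 87257385), scoring 124 in Foxa3_CA1, 57.3 in Foxa3_CA2 and 30 in Foxa2_NA3. The region of both sides inside the stretch (87261854 to 87262838) scored 107 in Foxa3_CA1, 59.3 in Foxa3_CA2 and 48.2 in Foxa2_NA3. In Foxa3_NA2 it scored 11.8 and ranked 13730 of 16543. The neighbouring regions of both sides, at 87236075 to 87237059 and 87284645 to 87285354, ranked 96 and 98 in Foxa3_CA1, against 6157 and 16210 in Foxa3_NA2; the first also held a Foxa2_CA3 peak, of rank 7391 among 13715. Around the pair, then, the other side held either no peak or one of much poorer rank than in Foxa3_CA1. This was not a contrast of the sides alone. Foxa1_NA3 also listed no peak at 87256490, 87261854 and 87284645, and ranked the pair at 847 and 752 of 956. At 87236075 its rank was 294. These neighbouring regions were picked with their values already seen.

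The best-ranked region of each pair or trio of libraries that held any was as follows. The best mean rank of all shared sets, 101, belonged to a Foxa3_CA1 and Foxa3_CA2 region on chromosome 5 (5159987 to 5160640), with scores of 93.1 and 56.5. The best region of Foxa2_NA3, Foxa3_CA1 and Foxa3_CA2 lay on chromosome 11 (101519267 to 101520275) and scored 45.5, 93.6 and 75.1. For Foxa2_NA3 with Foxa3_CA1 it lay on chromosome 3 (51781838 to 51782412), with scores of 47.4 and 39.6. These 3 sets reached well into the strong parts of their lists. For Foxa2_NA3 with Foxa3_CA2 the best region lay on chromosome 12 (105011735 to 105012283), with ranks of 1888 and 1606. The sets with Foxa1_NA3 had their best regions on chromosome 9 (74472015 to 74472405, with Foxa2_NA3; 61573511 to 61573865, with Foxa3_CA2), chromosome 7 (118762214 to 118762781, with Foxa3_CA1), chromosome 1 (64591123 to 64591593, with Foxa2_NA3 and Foxa3_CA1) and chromosome 10 (107946552 to 107947035, with Foxa3_CA1 and Foxa3_CA2). Their mean ranks ran from 1432 to 1873. These sets held 1 to 5 regions each, against 164, 110 and 75 in the first 3 sets. The best of many regions ranks better by selection alone, and ranks were averaged over lists of unequal length. The mean ranks of the sets are therefore not compared.

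The best-ranked regions of a single library differed in how high they stood in their lists. Those of Foxa3_CA1 ranked 280, 324 and 388 of 7533 peaks, and those of Foxa2_NA3 323, 881 and 1255 of 5230. Those of Foxa3_CA2 ranked 684, 993 and 1004 of 3594, and those of Foxa1_NA3 258, 545 and 628 of 956. The Foxa1_NA3 peaks of ranks 545 and 628 scored 12.4 and 11.4, below the median of 13.4 for that list. The strongest in Foxa3_CA1 alone lay on chromosome 9 (13292511 to 13293085; score 67.5, rank 280), chromosome 14 (33728555 to 33729157; score 64.4, rank 324) and chromosome 16 (59552034 to 59552727; score 59.9, rank 388). The strongest in Foxa2_NA3 alone lay on chromosome 2 (72010957 to 72011469; score 51.7, rank 323), chromosome 4 (112675568 to 112676132; score 32.4) and chromosome 11 (34576670 to 34577113; score 27.0). The last of these lay 510433 bp from any peak of the other 4 lists. Foxa3_CA2 alone had its best regions on chromosome 14 (118988420 to 118988924; score 25.7, rank 684), chromosome 5 (132663767 to 132664169) and chromosome 3 (52336086 to 52336367). Foxa1_NA3 alone had them on chromosome 16 (26479786 to 26480108; score 17.2, rank 258), chromosome 15 (7053854 to 7054103) and chromosome 13 (53697642 to 53697907). Each of these peaks stands on 1 library.

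Few of the regions missed a listed peak of the other 4 lists by a short distance. Whether a weaker peak there fell just short of being listed cannot be seen from the lists. The median distance to the nearest peak of the other 4 lists was 19962 bp; 157 regions (7.10%) had such a peak within 1000 bp and 775 (35.1%) within 10000 bp. Just inside the rule, the nearest regions were separated from such a peak by 3 bp (chromosome 11, 106649489 to 106649975), 14 bp (chromosome 17, 8138574 to 8138947) and 17 bp (chromosome 3, 96292329 to 96293379). Just outside it, the smallest overlap between the sides was 13 bp (chromosome 13, 21871966 to 21872921). Next came 36 bp (chromosome 17, 34255874 to 34257074) and 41 bp (chromosome 14, 76390527 to 76391384). All of these regions held Foxa3_CA1 and Foxa3_NA2 peaks, and those of 13 and 36 bp also held a Foxa3_CA2 peak. Such small overlaps were rare: the largest overlap was under 100 bp in 12 of the 7465 regions of both sides, whose median was 416 bp. Merging also removed a few peaks that touched no peak of the other side but were chained to one, namely 10 in Foxa3_CA2, 6 in Foxa2_NA3, 1 in Foxa3_CA1 and 0 in Foxa1_NA3. Leaving out the regions with a peak of the other 4 lists within 1 kb kept 2054 regions.

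The regions examined were scattered over the genome, with a few dense spots. They made up from 6.94% of all union regions on chromosome 11 to 12% on chromosome 13. Of the regions, 274 (12.4%; interval 11 to 13.8%) lay within 10 kb of another of the group, against 27.0% of the more numerous regions of both sides and 36.0% of the regions of the other 4 lists alone. The share of the group was 7.51% with peaks above the pooled median score and 5.02% with the 956 strongest peaks of each list. Any region at all lay within 10 kb of 41.7% of them (39.6 to 43.7%), against 48.8% of all union regions. Both intervals treat regions as independent, whereas nearness is mutual between neighbours. Runs of 3 or more with gaps of at most 10 kb numbered 22 and held 96 regions.

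In fixed windows of 1 Mb the group was most numerous on chromosomes 13, 3 and 19. Full windows were not particular to the group. The highest number in a window was 22 for the group and 20 for regions of both sides. It was 37 for regions of the other 4 lists alone and 51 for all union regions. Chromosome 13 (23 to 24 Mb) held 22 of these regions among 43 union regions (51.2%), of which 20 carried a Foxa3_CA1 peak, 9 a Foxa3_CA2 peak, 5 a Foxa2_NA3 peak and 0 a Foxa1_NA3 peak. The window at 96 to 97 Mb of chromosome 3 held 16 of 38, and that at 5 to 6 Mb of chromosome 19 held 15 of 31. The next was again on chromosome 13, from 21 to 22 Mb, with 13 of 22. All 4 windows are above the 8.84% that these regions made up of the whole. They were picked for holding most of these regions, which by itself favours a high share. In each of them Foxa3_CA1 supplied most, as it did over the whole group (78.2%). The 3 best-ranked regions of the first window lay at 23830428 to 23832568, 23836236 to 23837479 and 23956662 to 23957095, the first 2 with Foxa3_CA1 scores of 44.7 and 38.0 and the last with a Foxa2_NA3 score of 22.1. Not every dense window looked alike. A window on chromosome 7 (149 to 150 Mb) held 10 of 27 union regions and another on chromosome 8 (37 to 38 Mb) held 10 of 37, and neither held a peak of 4a3_DA1, a further list described below.

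The longest run lay inside the first window, with 10 regions in 26015 bp of chromosome 13 (23830428 to 23856442). There Foxa3_CA1 listed 11 peaks, Foxa3_CA2 5, Foxa2_NA3 1 and Foxa1_NA3 0. The other side listed 2 in Foxa3_NA2, 1 in Foxa2_CA3 and 0 in Foxa1_CA3 and Foxa3_NA1. The Foxa2_NA3 peak ranked 5145 of 5230 in its list. On chromosome 19, 2 runs of 7 regions each (5794114 to 5802885 and 5823208 to 5831084) lay near each other. In the first, 3 of the regions were shared by 2 or more libraries and 5 met a 4a3_DA1 peak. In the second, all 7 were Foxa3_CA1 peaks alone and none met a 4a3_DA1 peak. Other runs held 6 regions each on chromosome 7 (149835972 to 149845444) and chromosome 10 (21713942 to 21721102; 5 of the 6 met 4a3_DA1), and 4 on chromosome 1 (72272549 to 72302330), where all 4 were shared by 2 or more libraries. Neighbouring peaks in such runs are not separate observations.

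Very wide regions were few and concentrated at these spots. In all, 38 regions (1.72%; interval 1.22 to 2.35%) were wider than 1000 bp, against 3.70% of the regions of both sides and 0.222% of the regions of the other 4 lists alone. All 38 held a Foxa3_CA1 peak, 25 a Foxa3_CA2 peak, 16 a Foxa2_NA3 peak and 0 a Foxa1_NA3 peak, and 20 of them lay in the 4 windows with most regions. The widest, 2392 bp (chromosome 13, 21924457 to 21926848), was a single Foxa3_CA1 peak of middling rank, 4137. Next came regions of 2141 bp in the longest run and of 1979 bp on chromosome 17 (36053781 to 36055759), both of Foxa3_CA1 with Foxa3_CA2. A neighbouring pair on chromosome 7 (149760265 to 149761992 and 149762158 to 149763934), chosen after its values were seen, was held by Foxa2_NA3, Foxa3_CA1 and Foxa3_CA2 over 1728 and 1777 bp. It scored 20.6 and 7.38 in Foxa2_NA3, 47.7 and 44.6 in Foxa3_CA1, and 32.7 and 26.9 in Foxa3_CA2. It met no 4a3_DA1 peak.

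**Figure D4:**
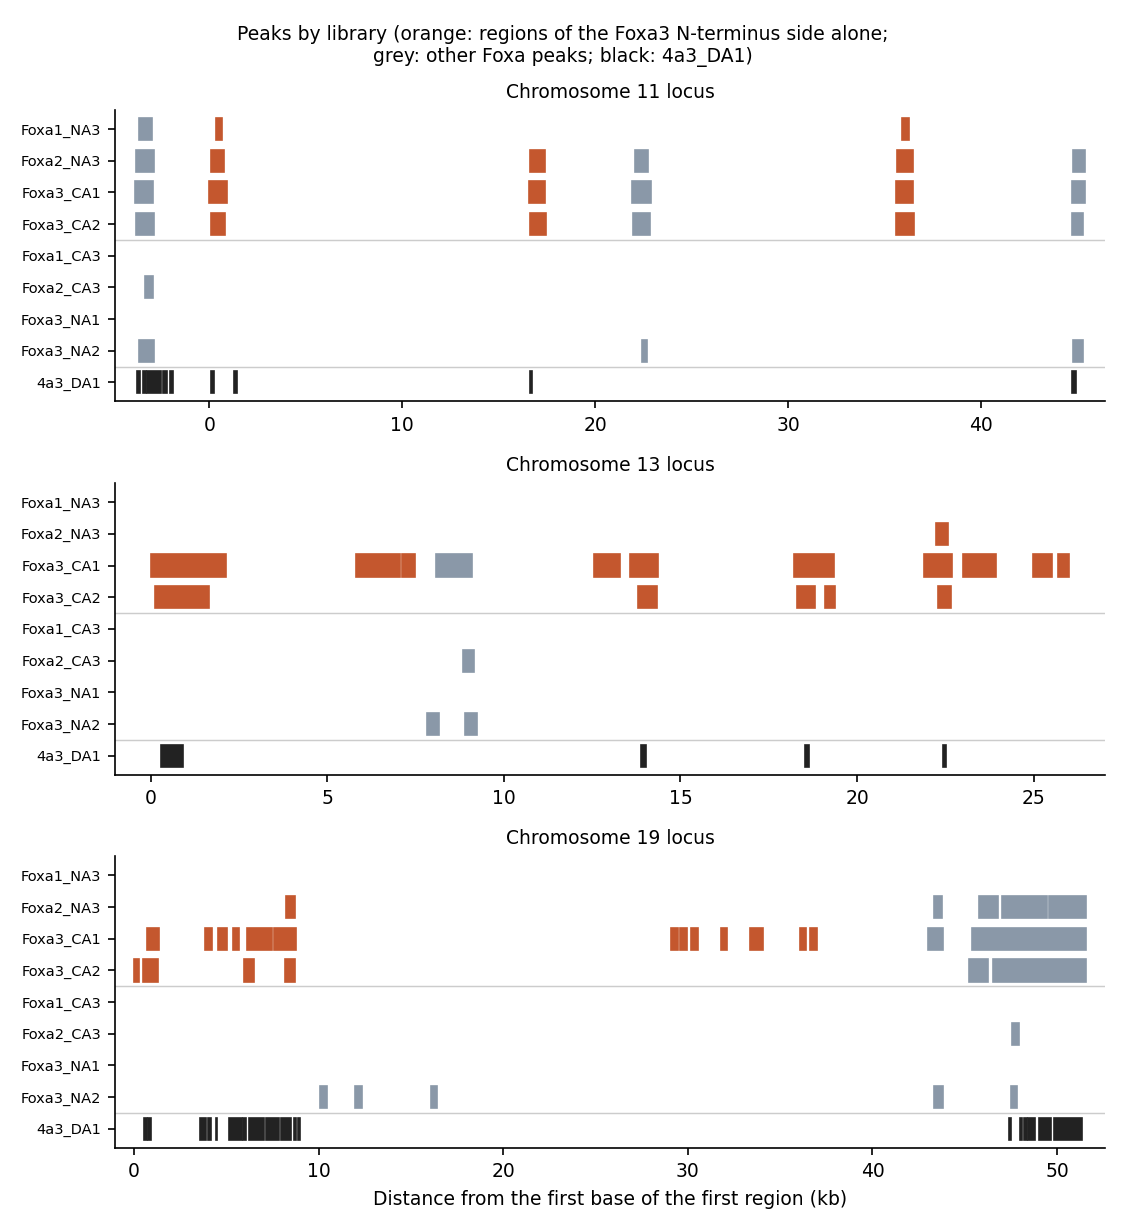
Peaks of the 8 Foxa lists and of 4a3_DA1 (rows) at 3 loci, by distance from the first base of the first region (x axis, kb); boxes span each peak, in orange for regions of the Foxa3 N-terminus side alone, in grey for other Foxa peaks and in black for 4a3_DA1. On chromosome 13 Foxa3_CA1 lists 11 peaks between the ends of the run, and on chromosome 19 the second run is of Foxa3_CA1 alone. The broad peaks at the right end of the chromosome 19 panel lie past that run. They are joined to a Foxa2_CA3 and a Foxa3_NA2 peak and so count as a region of both sides.

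The list of 4a3_DA1 was not used by the rule. Its labels conflict: the title names a Foxa3 construct, whereas infection is given as Foxa1 and Hnf4alpha and the antibody as Hnf4alpha. It lists 698 narrow peaks with a median width of 115 bp. Of the 2211 regions, 108 met a 4a3_DA1 peak (4.88%; interval 4.02 to 5.87%), against 73 of the 7465 regions of both sides (0.978%; 0.767 to 1.23%), 36 of the 15323 regions of the other 4 lists alone (0.235%; 0.165 to 0.325%) and 217 of all 24999 union regions (0.868%). The group thus held 8.84% of the union regions and 49.8% of those that met 4a3_DA1. Seen from the other list, 144 of its 698 peaks (20.6%) met one of these regions, 104 (14.9%) a region of both sides and 37 (5.30%) a region of the other 4 lists alone, while 413 (59.2%) met none. Intervals cover counting error only, and clustered peaks are not independent.

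Nearly all of the overlap lay in regions of the Foxa3_CA1 and Foxa3_CA2 libraries, which also held most of the regions. Foxa3_CA1 peaks were in 78.2% of the 2211 regions and in 104 of the 108 that met 4a3_DA1. The share was 6.02% (4.94 to 7.25%) of the 1728 regions with a Foxa3_CA1 peak and 0.828% (0.226 to 2.11%) of the 483 without. Of the 247 regions with Foxa3_CA1 and Foxa3_CA2 peaks, 47 met 4a3_DA1 (19.0%, interval 14.3 to 24.5%). Of the regions of Foxa3_CA1 alone, 51 of 1362 did (3.74%; 2.80 to 4.89%), and of those of Foxa3_CA2 alone, 3 of 109 (2.75%; 0.571 to 7.83%). Of the 352 regions with a Foxa2_NA3 peak and none of Foxa3_CA1 or Foxa3_CA2, 1 did (0.284%; 0.00719 to 1.57%). Among the 75 regions of Foxa2_NA3, Foxa3_CA1 and Foxa3_CA2 the share was 20% (11.6 to 30.8%), and among the 30 regions with a Foxa1_NA3 peak 1 met 4a3_DA1. By number of libraries, the share was 3.01% for 1 list, 12.6% for 2 lists, 18.3% for 3 lists and 1 of 6 regions for all 4 lists. The chromosome 11 regions at 101519267, 87239944 and 87256490, described above, were among the 5 best-ranked that met 4a3_DA1, with 3, 1 and 1 of its peaks. The other 2 lay on chromosome 9 (65043877 to 65044734; scores of 119 in Foxa3_CA1, 45.7 in Foxa3_CA2 and 39.4 in Foxa2_NA3) and chromosome 11 (115885399 to 115885987; 52.8 in Foxa3_CA1 and 32.3 in Foxa3_CA2).

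Region width and the local density of 4a3_DA1 peaks moved with this overlap. Of the 38 regions wider than 1000 bp, 21 met 4a3_DA1 (55.3%; 38.3 to 71.4%), against 31 of 276 regions of both sides past the same width (11.2%; 7.76 to 15.6%) and 0 of 34 such regions of the other 4 lists alone (0 to 10.3%; 3 counts of the total are 8.82%). Widths were not matched beyond that limit, and the widest region of both sides measured 6339 bp. Among regions up to 1000 bp the shares were 4.0% (3.22 to 4.92%), 0.584% (0.421 to 0.789%) and 0.235% (0.165 to 0.326%) for the group, both sides and the other 4 lists alone. In the 9 windows of 1 Mb with 10 or more 4a3_DA1 peaks, 25 of 76 regions met one (32.9%; 22.5 to 44.6%), against 16 of 69 regions of both sides (23.2%; 13.9 to 34.9%) and 1 of 101 regions of the other 4 lists alone (0.990%; 0.0251 to 5.39%). Outside those windows the shares were 3.89% (3.11 to 4.80%) of the 2135 regions left, against 0.771% (0.584 to 0.997%) of the regions of both sides and 0.230% (0.160 to 0.320%) of the regions of the other 4 lists alone.

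Library by library, the peaks of these regions met 4a3_DA1 more often than the remaining peaks in 3 of the 4 Foxa3 N-terminus lists. In Foxa3_CA2, 49 of 377 such peaks met it (13%; 9.77 to 16.8%), against 1.31% of the remaining peaks. In Foxa3_CA1 the shares were 6.02% (4.94 to 7.25%) and 1.05%, and in Foxa2_NA3 3.73% (2.32 to 5.65%) and 0.879%. In Foxa1_NA3 0 of 30 such peaks met it, with an exact interval of 0 to 11.6% (3 counts of the total are 10%), against 0.972% of the remaining peaks. The mean difference over the 4 libraries was 4.63 percentage points, which did not pass an exact two-sided sign-flip test (p = 0.250, adjusted p = 0.250 over 2 tests; 0.125 is the smallest p that 4 libraries allow). The mirror groups of the other side went the opposite way: the peaks found on the Foxa3 C-terminus side alone met 4a3_DA1 in 0 of 1415 cases in Foxa1_CA3 (exact interval 0 to 0.260%; 3 counts of the total are 0.212%), 0.187% in Foxa2_CA3, 0.222% in Foxa3_NA1 and 0.336% in Foxa3_NA2, below the 0.295, 0.592, 0.386 and 1.05% of their remaining peaks. That contrast between the sides was not tested.

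Over all peaks of a library, whatever regions they lay in, the Foxa3 N-terminus libraries met 4a3_DA1 in 0.941% (Foxa1_NA3), 1.19% (Foxa2_NA3), 2.19% (Foxa3_CA1) and 2.53% (Foxa3_CA2) of cases, against 0.208% (Foxa1_CA3), 0.372% (Foxa2_CA3), 0.328% (Foxa3_NA1) and 0.586% (Foxa3_NA2). The groups did not overlap. Means were 1.71 ± 0.769% and 0.374 ± 0.158% (SD, n = 4 libraries each), a difference of 1.34 percentage points (exact two-sided permutation p = 0.0286, the smallest the 70 splits allow; adjusted p = 0.0571 over 2 tests, which does not pass 0.05). With the 956 strongest peaks of each list the shares were 0.941, 1.67, 3.35 and 3.35% in the same order of Foxa3 N-terminus libraries, against 0.523, 0.941, 0.628 and 1.36% (exact permutation p = 0.0857, n = 4 each), and the groups overlapped. Without the dense 4a3_DA1 windows the difference was 0.869 percentage points (exact permutation p = 0.0286, n = 4 each). With the libraries paired across the sides by core and partner protein, all 4 differences were positive (0.733, 0.814, 1.86 and 1.95 percentage points), and an exact two-sided sign-flip test gave p = 0.125, the smallest that 4 pairs allow.

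**Figure D5:**
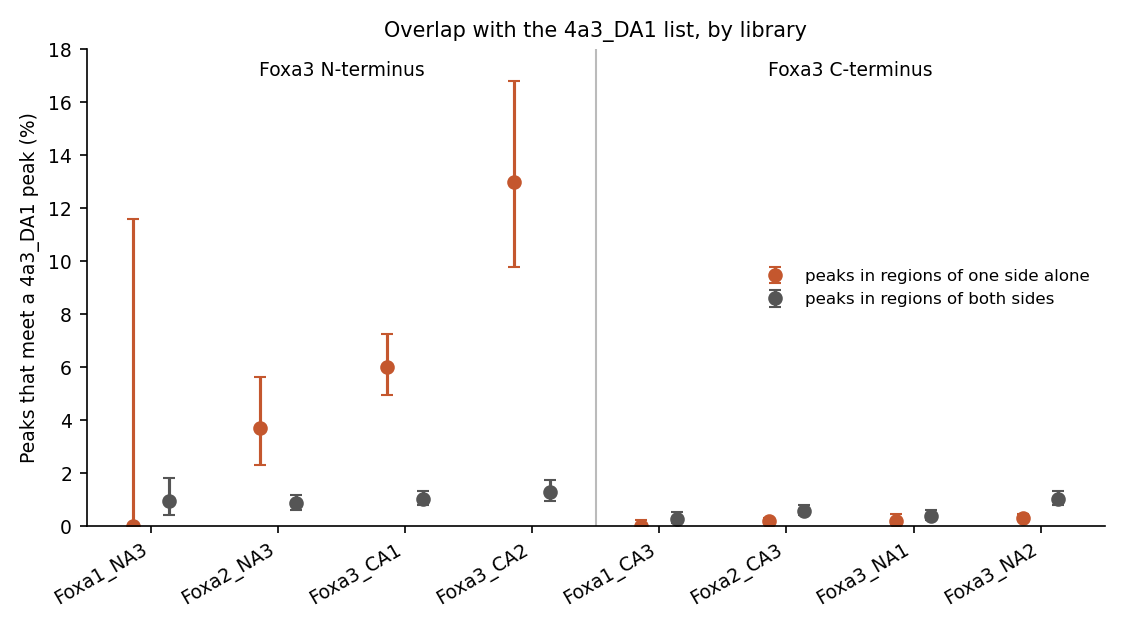
Share of peaks that meet a 4a3_DA1 peak (y axis, percent) in each Foxa library (x axis, Foxa3 N-terminus libraries on the left), for peaks in regions of that side alone (orange) and in regions of both sides (grey); points are shares and bars are exact 95% intervals, which cover counting error only. Foxa3_CA2 has the highest share, 13%, and the libraries of the Foxa3 C-terminus side stay at 1.05% or lower.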

How the data were processed

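The series as used here comprises 18 samples, 9 ChIP libraries and 9 inputs; the inputs were not analysed here. The authors called peaks per library and deposited a score with each, for which BWA 0.6.2, MACS2 2.1.0, bedtools 2.16.2 and mm9 are listed, per the submitters' processing notes; caller settings, the use of the input and the kind of score are not stated there. The files have no header line and hold 1 peak per line; the lowest score in the 8 Foxa lists was 5.11. Scores describe or rank peaks within a list only.

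Starts were converted to count from 1. Overlapping peaks were merged, and regions, widths, gaps and overlaps (1 bp) were computed with Python 3.11.15, numpy 2.4.6 and scipy 1.17.1; figures used matplotlib 3.10.9. The routine gave the same 24999 regions as bedtools 2.31.1 and was tested on simulated data. The 2 tests took libraries as units; with 1 library per construct, their p-values reflect differences among constructs and not among replicate cultures. Regions named were those held by all 4 lists, the best ranked of each set of lists, the widest, those of the densest window, the best ranked that met 4a3_DA1 and the nearest to the other side; exceptions are stated. The rule, the members and these lists were chosen with earlier results of these data known. Alternatives were a score above 19.2 (the pooled median), the 956 strongest peaks, merging within 1 kb, a 1 kb margin, midpoints within 200 bp, dense 4a3_DA1 windows left out, libraries paired by construct and each library left out in turn. Gene and sequence context was not run, because no mm9 genome or annotation was used here.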

Additional observations from a re-analysis of the deposited data

How the results depend on the processing

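The number of regions depended on list length and score. With peaks above the pooled median score 906 regions met the rule, 141 in 2 or more lists and 0 in all 4; 68.9% were in Foxa3_CA1 alone, 7.51% lay within 10 kb of another and 6.40% met 4a3_DA1. With the 956 strongest peaks of each list there were 897 regions, 21 of them in all 4 lists; 18.2% were in Foxa3_CA1 alone and 5.02% lay within 10 kb of another. With the lists of the Foxa3 N-terminus side alone shortened to that number, an alternative chosen after seeing the data, there were 114 regions, 25 in 2 or more lists and 2 in all 4; 31.6% were in Foxa3_CA1 alone, 10.5% lay within 10 kb of another and 10.5% met 4a3_DA1. Fewer peaks entered each of these settings. Merging within 1 kb gave 8.30% within 10 kb of another, since it joins close neighbours, and 3.90% that met 4a3_DA1. Leaving out the dense 4a3_DA1 windows, also added later, gave 3.75%. With a 1 kb margin to the other 4 lists, the 3 counts and 3 shares given here stayed within their limits; the library tests were not run with it.

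Leaving out each library in turn gave 868 to 2867 regions, 108 to 565 in 2 or more lists and 6 to 81 in all remaining lists of the side. The share in Foxa3_CA1 alone ran from 56.5 to 79.1%, that within 10 kb of another from 10.4 to 14.1% and that meeting 4a3_DA1 from 3.77 to 6.68%.

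The difference between the sides in the share of peaks that met 4a3_DA1 kept its direction in every alternative run. It was 1.34 percentage points above the pooled median score (exact permutation p = 0.0571) and 1.46 with the 956 strongest peaks (exact permutation p = 0.0857). Without each library in turn it ran from 1.07 to 1.60, with an exact permutation p of 0.0286 or 0.0571. The difference within libraries kept its direction in every alternative run (2.28 to 6.50 without each library in turn). Its exact sign-flip test could pass in none of them. With 4 libraries it allows no p below 0.125, and with fewer the smallest p is larger. Replicate numbers do not pair samples, since each construct has 1 library and no replicate block could be fitted. With constructs paired by core and partner protein instead, added after seeing the data, the difference was 1.34 (exact sign-flip p = 0.125, the smallest that 4 pairs allow). The sequencing depth behind each list, which sets how weak a peak can be and still be listed, is unknown.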
